A study of Mus musculus with 10 samples.

Results

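The 40 genes described here encode proteins of G2 phase and mitosis, and they were taken as a named list and matched by gene symbol to the read count tables. All 40 were present among the 23420 genes counted, and all 40 were among the 14161 genes with enough counts to be tested. They comprise 7 mitotic kinases and cyclins (Cdk1, Ccna2, Ccnb1, Ccnb2, Plk1, Aurka, Melk), 2 partners of the anaphase-promoting complex (Cdc20, Ube2c) and 4 subunits of the chromosomal passenger complex (Aurkb, Incenp, Birc5, Cdca8). A further 5 are kinetochore proteins (Ndc80, Nuf2, Spc25, Cenpe, Cenpf) and 4 are spindle checkpoint proteins (Bub1, Bub1b, Ttk, Mad2l1). There are 8 motor kinesins (Kif11, Kif15, Kif18a, Kif2c, Kif4, Kif22, Kif20a, Kif23), 3 spindle microtubule proteins (Tpx2, Nusap1, Hmmr) and 4 cytokinesis proteins (Prc1, Anln, Ect2, Racgap1). The transcription factor Foxm1, the topoisomerase Top2a and the proliferation marker Mki67 complete the list.

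RNA was sequenced from 10 libraries of sorted bone marrow cells of C57BL/6 mice. Pro-B cells were sorted as B220+, IgM- and CD43+, with 2 control and 2 Mta2 KO libraries. Small pre-B cells were sorted as B220+, IgM- and CD43- and by their scatter on the cytometer, with 3 control and 3 Mta2 KO libraries. Mta2 encodes a subunit of the NuRD complex, a chromatin remodeller with histone deacetylase activity. The titles call the knockout a Vav KO, Vav being a promoter active throughout the blood lineages, so other marrow cells of these mice would lack the gene too. No genotype of the controls beyond the word control, and no age, sex or litter, is given in the labels. The small pre-B gate selects on cell size, which follows the cell cycle, so the stage comparison also compares gates. The labels do not state that the libraries of a group came from separate animals, so a p-value here reflects library-to-library spread, which may be technical. The stages cannot be told apart from any batch in which each was handled.

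Cells enter mitosis when the kinase Cdk1, bound to a B-type cyclin, becomes active, and they leave it when the anaphase-promoting complex marks cyclin B and other proteins for destruction. The genes of this programme are repressed in resting cells by the DREAM complex and are activated by MuvB together with B-Myb and Foxm1. Their promoters are known for a cell cycle homology element close to the transcription start and for CCAAT boxes, which bind the factor NF-Y. In the bone marrow, pro-B cells and large pre-B cells divide, while small pre-B cells have left the cycle and rearrange their light chain genes.

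Promoter sequence from RefSeq (GRCm38.p6, the assembly also called mm10) was on hand for 34 of the 40 genes, as 36 windows of 300 bases from 250 before to 50 after a start. The windows were searched on both strands for the box CCAAT, which reads as ATTGG on the opposite strand. The element was searched as TTTGAA, whose opposite strand reads as TTCAAA, and in a second form, TTTAAA. The stretches printed here are the 130 bases before the start, read 5′ to 3′ on the gene's strand, with both motifs in capitals. They were chosen with the expression values known, to show the genes with the largest falls between stages (Ube2c and Plk1), the Cdk1 and cyclin B1 pair, a gene with a small stage difference (Top2a) and a gene that fell without either motif (Melk).
Ube2c, chr2:164769799-164769928, plus strand: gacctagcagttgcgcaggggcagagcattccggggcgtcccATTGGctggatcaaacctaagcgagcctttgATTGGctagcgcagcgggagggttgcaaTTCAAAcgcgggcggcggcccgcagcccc
Plk1, chr7:122159305-122159434, plus strand: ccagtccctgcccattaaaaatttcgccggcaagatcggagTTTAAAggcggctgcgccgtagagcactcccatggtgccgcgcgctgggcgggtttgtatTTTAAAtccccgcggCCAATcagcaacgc
Ccnb1, chr13:100786487-100786616, minus strand: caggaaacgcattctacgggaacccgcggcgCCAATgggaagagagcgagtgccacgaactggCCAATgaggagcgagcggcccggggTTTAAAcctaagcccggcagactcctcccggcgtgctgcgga
Cdk1, chr10:69352913-69353042, minus strand: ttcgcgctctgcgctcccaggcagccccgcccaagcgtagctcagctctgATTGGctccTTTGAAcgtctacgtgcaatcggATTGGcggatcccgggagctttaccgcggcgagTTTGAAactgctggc
Top2a, chr11:99024190-99024319, minus strand: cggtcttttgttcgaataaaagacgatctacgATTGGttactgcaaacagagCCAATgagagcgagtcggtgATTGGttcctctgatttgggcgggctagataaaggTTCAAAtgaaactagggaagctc
Melk, chr4:44300787-44300916, plus strand: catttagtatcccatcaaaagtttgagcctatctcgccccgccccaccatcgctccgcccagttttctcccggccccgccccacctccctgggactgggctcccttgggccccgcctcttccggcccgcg

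An element lay in 83.3% of the 36 windows of the mitotic genes and in 27.6% of all 32851 windows of the table. A CCAAT box lay in 72.2% of them against 37.4% of all windows, and 2 or more boxes in 50% against 11.7%. Both motifs were present in 69.4% against 10.7%. Of the 45 elements in the windows, 31 lay between 50 bases before and 50 after the start, and of the 62 boxes 42 lay in the 100 bases before it. The median position was -66 for a box and -17 for an element. Prc1 and Ect2 have 2 overlapping windows each, so their sites entered these counts and medians once per window. Nusap1, Kif18a, Nuf2, Mad2l1 and Melk had neither motif in this window. A match is a description of the letters and no evidence of binding, and the motifs shared a base in 66 windows of the table. Of 50 other G2 and M genes, from a list that does not contain the 40, 35 had promoter windows. Both motifs lay in 61.5% of their 39 windows. Of 26 DNA replication genes 21 had promoter windows, and both motifs lay in 19.2% of their 26 windows.

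**Figure D1:**
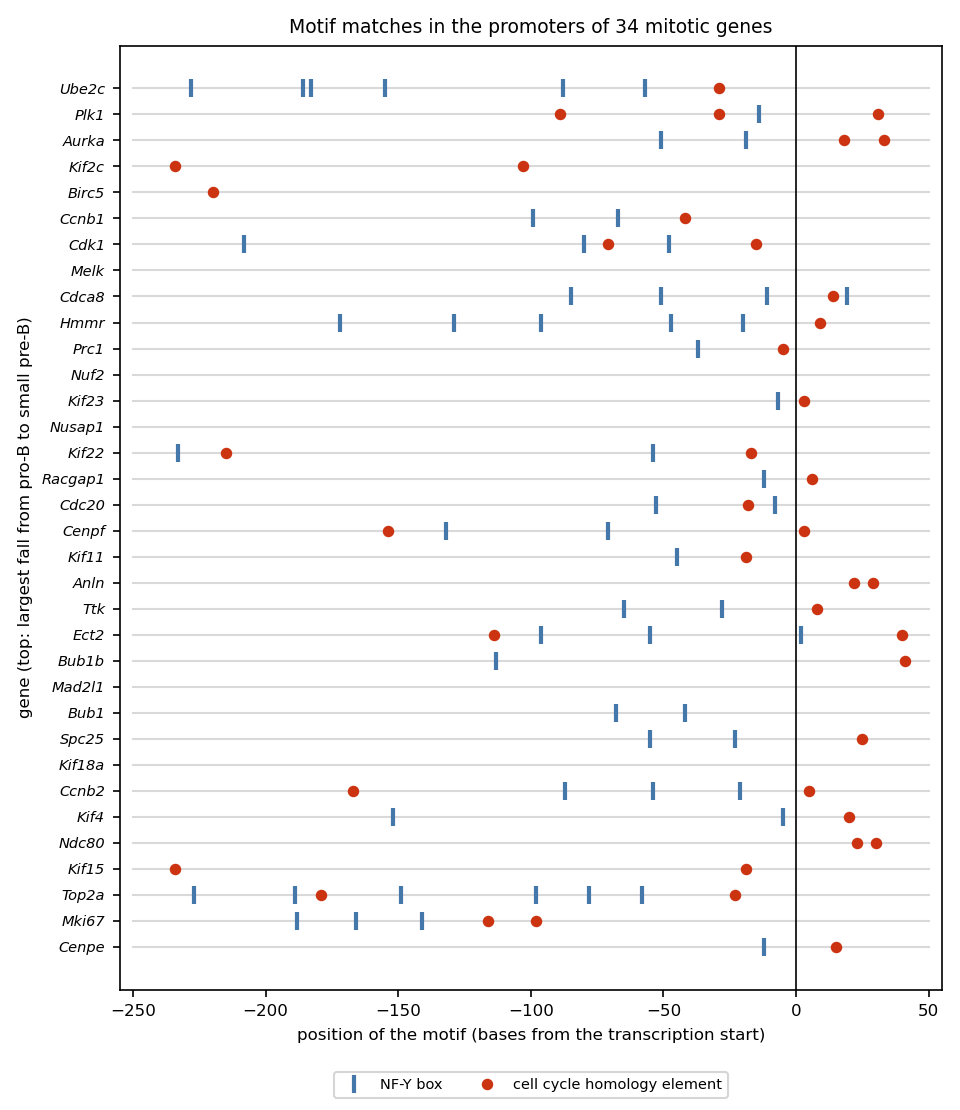
Positions of CCAAT boxes (bars, labelled NF-Y box) and cell cycle homology elements (points) in the first promoter window of 34 mitotic genes, in bases from the transcription start; genes are ordered by their stage difference in controls, with the largest fall at the top. Boxes lie mainly upstream of the start and elements around it, and 5 rows, among them Melk near the top, are empty.

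Total counts were 17805507 to 52127004 per library, and the lowest count of a member in any library was 98 (Melk), with a counting error of 10.1%. Levels are given as CPM, counts scaled to a common library size with TMM factors that correct for library composition. The targeted gene Mta2 had 436 and 375 CPM in the pro-B controls, 163 and 166 CPM in pro-B KO, 438, 246 and 412 CPM in the small pre-B controls and 199, 179 and 198 CPM in small pre-B KO. Its reads were counted over all exons, deleted or not. Every KO library was below every control library of its stage. The log2 fold change was -1.31 in pro-B cells, which did not pass (adjusted p = 0.212, edgeR), and -0.93 in small pre-B cells (adjusted p = 0.042, edgeR). A fit of the small pre-B groups alone called 0 of all tested genes. The 9 B lineage markers summed to 2022 to 2716 CPM in pro-B and to 9126 to 13700 CPM in small pre-B libraries. Il2ra, Rag1 and 4 other small pre-B markers were higher in small pre-B cells, and Rag1 is in both lists. Of 8 pro-B markers 2 were lower and 1 higher in small pre-B controls, against 29.4% and 26% of all tested genes. In KO 1 was lower and 1 higher, against 27.3% and 24%. Markers of other cell types were strong in the pro-B libraries, where 12 granulocyte and myeloid markers summed to 10100 to 23760 CPM, against 126 to 463 CPM in small pre-B libraries. Small pre-B KO 1 and 2 held Xist RNA (2518 and 2942 CPM), with 8.13 and 0.079 CPM of Y-linked RNA. Small pre-B KO 3, both pro-B KO libraries and all controls held Y-linked RNA (224 to 674 CPM). Xist was low in these, with the highest value in small pre-B control 1 (31.4 CPM). Small pre-B control 3 had 1.4% of its counts in Malat1 and 0.953% in histone genes. No other library exceeded 0.290% and 0.0399%.

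The stage comparison in control mice asked how the programme differs between pro-B and small pre-B cells, and the mitotic genes were lower in small pre-B cells almost throughout. Of the 40 genes, 38 fell and 0 rose (edgeR quasi-likelihood F-test, adjusted p below 0.05), where 29.4% of all tested genes fell and 26% rose. The median log2 fold change was -1.65 over the 40 genes and -0.02 over all tested genes, and it was negative in 40 of 40 genes, against 51% of all. The largest falls were those of Ube2c (-3.46), Plk1 (-3.05) and Aurka (-2.54), and the smallest difference was that of Cenpe (-0.87). In 40 of 40 genes each small pre-B control library lay below both pro-B controls, as it did for 38.9% of all genes. The genes that did not pass were Top2a and Kif18a. In bulk RNA, fewer cycling cells and less RNA per cycling cell cannot be told apart.

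**Figure D2:**
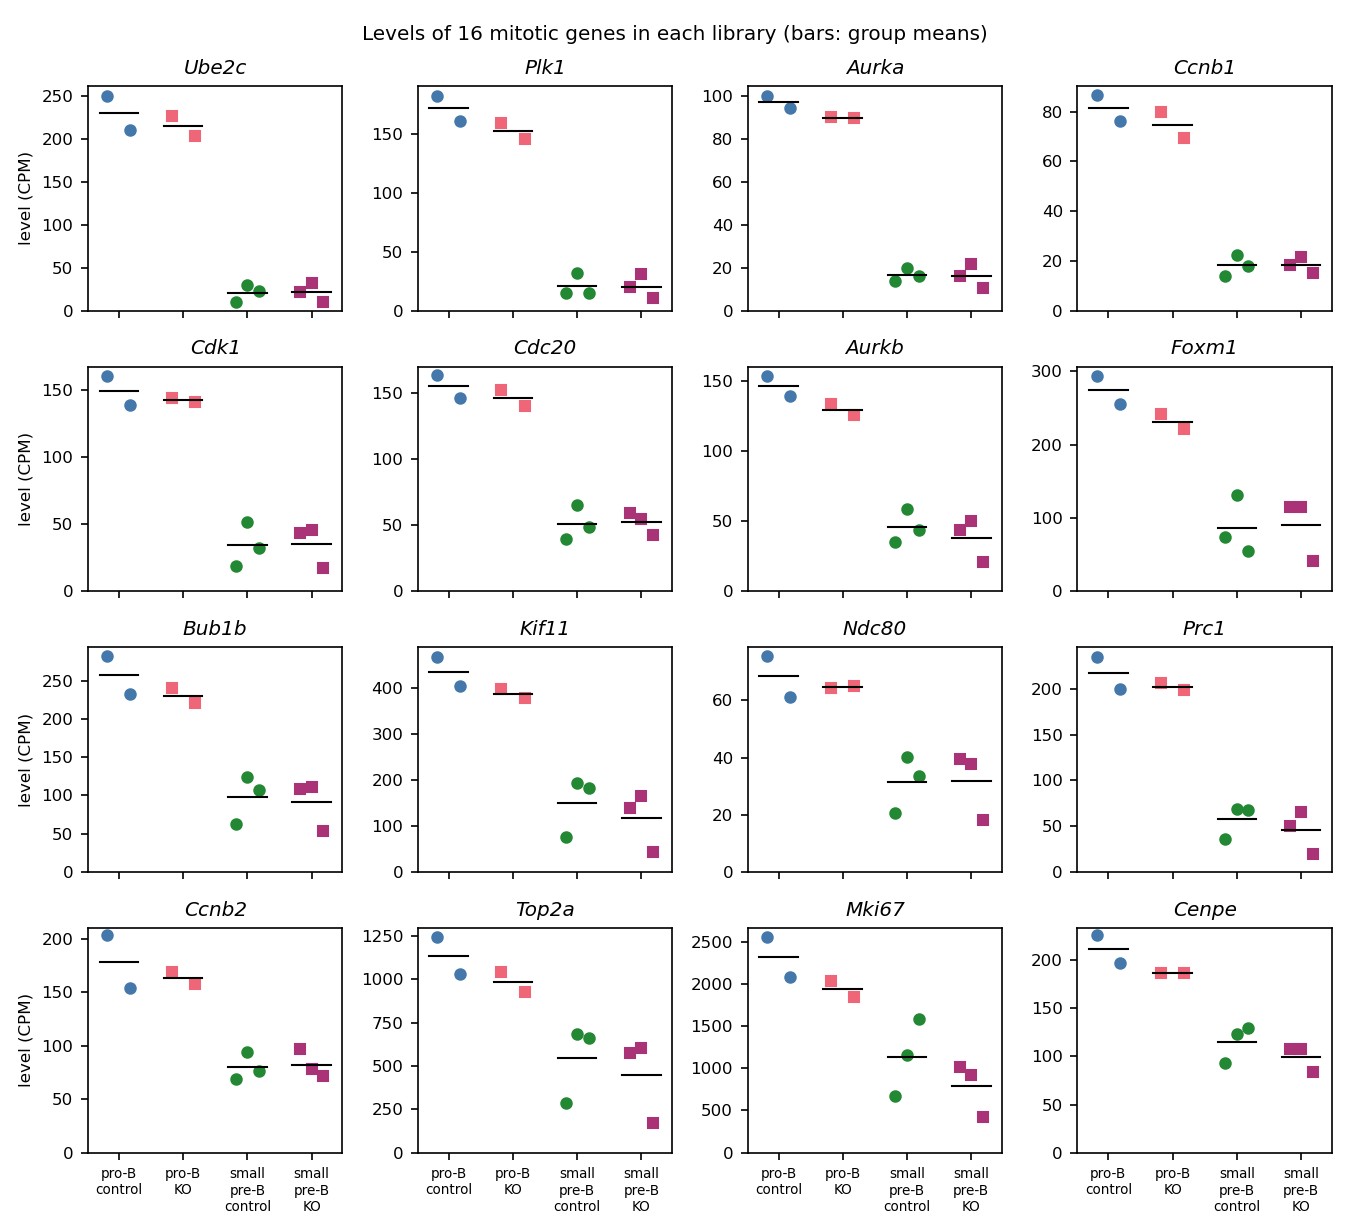
Level of 16 mitotic genes in CPM in each of the 10 libraries, with circles for control libraries, squares for KO libraries and bars for the group means; every axis starts at 0. In each panel the 6 small pre-B libraries lie below the 4 pro-B libraries, by the widest margin for Ube2c and Plk1.

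The kinases and cyclins that drive entry into mitosis fell in 7 of 7 cases, with a median log2 fold change of -2.13. Cdk1, the catalytic subunit, was at 160 and 139 CPM in pro-B controls and at 19.2, 51.4 and 31.9 CPM in small pre-B controls. Its lowest pro-B value was far above the highest small pre-B value, with a log2 fold change of -2.13 (SE 0.44, adjusted p = 0.00299, edgeR). Ccnb1, the gene of cyclin B1, was at 86.6 and 76.4 CPM and then at 14.1, 22.5 and 17.9 CPM. The groups stood well apart and the small pre-B libraries were close to each other, for a log2 fold change of -2.16 (SE 0.21, adjusted p = 4.47e-05, edgeR). Ccnb2, the gene of cyclin B2, fell less, from 203 and 154 CPM to 68.5, 94.5 and 76.7 CPM (log2 fold change -1.16, SE 0.18, adjusted p = 0.000687, edgeR). Ccna2, the gene of cyclin A2, which acts in S phase and G2, had a log2 fold change of -1.64. A share of its exons, 378 of 2811 bases, overlaps Exosc9 on the other strand, and the authors counted without regard to strand.

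Plk1, a kinase of centrosomes, kinetochores and mitotic exit, was at 182 and 162 CPM in pro-B controls. In small pre-B controls it was at 14.9, 32.4 and 15.03 CPM, so that control 2 was above the other two libraries while all 3 were far below pro-B cells. The fall was 8.27-fold (log2 fold change -3.05, SE 0.44, adjusted p = 0.000428, edgeR). Aurka, the kinase of centrosome maturation and spindle poles, was at 100 and 94.3 CPM and then at 14.0, 19.9 and 16.2 CPM. It was among the tightest of the large falls (log2 fold change -2.54, SE 0.25, adjusted p = 5.53e-05, edgeR). Melk, a kinase of dividing progenitor cells, went from 47.3 and 40.2 CPM to 5.46, 12.9 and 13.5 CPM (log2 fold change -2.04).

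Ube2c, the ubiquitin-conjugating enzyme that works with the anaphase-promoting complex, had the largest difference of the 40 genes. It was at 250 and 211 CPM in pro-B controls and at 9.87, 29.7 and 22.9 CPM in small pre-B controls. That is an 11-fold lower level, with no library between the groups (log2 fold change -3.46, SE 0.48, 95% interval -4.54 to -2.37, adjusted p = 0.000348, edgeR). Cdc20, the activator that brings substrates to the same complex, was at 163 and 146 CPM and then at 39.3, 64.8 and 48.8 CPM. Its log2 fold change was -1.60 (SE 0.20, adjusted p = 0.000205, edgeR), and the difference from Ube2c was not tested.

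The chromosomal passenger complex corrects wrong attachments of chromosomes to the spindle, and its 4 genes fell together, with a median log2 fold change of -1.95. Aurkb, its kinase, was at 154 and 139 CPM in pro-B controls and at 35.3, 58.7 and 43.9 CPM in small pre-B controls (log2 fold change -1.67, SE 0.32, adjusted p = 0.00208, edgeR). The subunits Birc5 (survivin), Cdca8 (borealin) and Incenp were at -2.19, -1.99 and -1.92. Every library of each gene was on its group's side.

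The kinetochore genes, whose products tie chromosomes to microtubules, fell in 5 of 5 cases with a smaller median of -1.19. Ndc80, the name-giving subunit of the Ndc80 complex, was at 75.6 and 61.1 CPM in pro-B controls and at 20.6, 40.2 and 33.5 CPM in small pre-B controls. The highest small pre-B library was nearer to the lowest pro-B library than for the kinases, with a log2 fold change of -1.12 (SE 0.34, adjusted p = 0.0190, edgeR). Its partners Nuf2 and Spc25 had -1.86 and -1.19. Cenpe, a kinesin of the kinetochore that moves chromosomes to the spindle equator, was at 226 and 197 CPM and then at 93.1, 124 and 130 CPM. It had the smallest difference of the 40 genes but one of the most even (log2 fold change -0.87, SE 0.17, adjusted p = 0.00192, edgeR). Cenpf, a large kinetochore protein, had -1.60.

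Spindle checkpoint genes, which delay anaphase until each chromosome is attached, fell in 4 of 4 cases, with a median of -1.38. Bub1b (BubR1) was at 282 and 232 CPM in pro-B controls and at 62.9, 125 and 108 CPM in small pre-B controls (log2 fold change -1.39, SE 0.33, adjusted p = 0.00677, edgeR). Control 1 was the lowest of the 3 small pre-B control libraries there, as it was in Cdk1, Ube2c, Aurkb and Ndc80. The kinases Ttk and Bub1 had log2 fold changes of -1.45 and -1.22 and the checkpoint effector Mad2l1 -1.38.

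Of the 8 motor kinesins 7 fell, with a median of -1.60. Kif11, which pushes the spindle poles apart, was at 466 and 403 CPM in pro-B controls and at 75.4, 193 and 182 CPM in small pre-B controls (log2 fold change -1.53, SE 0.51, adjusted p = 0.0284, edgeR). The most strongly lower kinesin was Kif2c, a microtubule depolymerase (-2.24). Kif18a, which limits chromosome movements, was at 41.6 and 40.4 CPM and then at 7.58, 19.3 and 27.1 CPM. Its groups did not overlap, but it did not pass (log2 fold change -1.18, SE 0.45, adjusted p = 0.0506, edgeR). Kif15, a helper of spindle bipolarity, passed narrowly (-1.10, adjusted p = 0.0499, edgeR). Kif23 and Kif20a, kinesins of the central spindle, fell by 1.82 and 1.70 on the log2 scale, but 1302 of the 3905 exon bases of Kif20a overlap Brd8 and Cdc23 on the other strand. The chromosome-bound kinesins Kif22 and Kif4 had -1.66 and -1.15.

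The 3 spindle microtubule proteins fell with log2 fold changes of -1.77 for Tpx2, the activator of Aurka, -1.75 for Nusap1 and -1.91 for Hmmr. Cytokinesis genes fell in 4 of 4 cases. Prc1, which bundles microtubules at the midzone, was at 235 and 200 CPM in pro-B controls and at 36.5, 69.3 and 67.4 CPM in small pre-B controls (log2 fold change -1.91, SE 0.42, adjusted p = 0.00431, edgeR). The centralspindlin subunit Racgap1, the exchange factor Ect2 and the ring scaffold Anln had -1.61, -1.44 and -1.49. Their values were nearer to those of Cdc20 and Aurkb than to those of Ube2c and Plk1.

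Foxm1, the transcription factor of the G2 and M programme, was at 294 and 255 CPM in pro-B controls and at 73.9, 131 and 54.8 CPM in small pre-B controls (log2 fold change -1.66, SE 0.44, adjusted p = 0.0104, edgeR). Here control 3 was the lowest of the 3 small pre-B control libraries, whereas in Mki67 it was the highest of them. Mki67, the gene of the Ki-67 antigen, was at 2553 and 2082 CPM and then at 675, 1153 and 1583 CPM. Its call was the weakest of those that passed but for Kif15 (log2 fold change -1.03, SE 0.39, adjusted p = 0.0489, edgeR) and was lost in 11 of 19 alternative fits. Top2a, which untangles sister chromatids, was at 1241 and 1028 CPM and then at 285, 684 and 662 CPM. It did not pass (log2 fold change -1.06, SE 0.50, 95% interval -2.19 to 0.07, adjusted p = 0.0978, edgeR), although its groups did not overlap.

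The same comparison in KO mice gave 39 of 40 genes lower and 0 higher, against 27.3% lower and 24% higher among all genes (51.3% in either direction). The log2 fold change was negative in 40 of 40 genes, against 50.8% of all, with a median of -1.73. Ube2c (-3.33), Plk1 (-2.90) and Aurka (-2.47) were again at the lower end and Cenpe (-0.91), Ccnb2 (-0.99) and Ndc80 (-1.02) at the upper end. Top2a alone did not pass (-1.14, adjusted p = 0.0853, edgeR). All 40 genes were again without overlap between the groups, as were 39.4% of all genes in this direction. In both genotypes 38 genes fell, compared with 23.1% of all tested genes. The comparisons use different libraries in each genotype, and across the 40 genes their log2 fold changes had a Pearson r of 0.95 and a Spearman rho of 0.91, as a description over genes that are not independent. The largest gap between the genotypes for any gene was 0.34. Leaving out single libraries gave 26 to 40 genes lower in controls and 27 to 39 in KO, with the lowest counts without pro-B control 1 and without pro-B KO 1. Each of these leaves 1 pro-B library of its genotype, which is then assumed to vary like the libraries of the other groups.

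**Figure D3:**
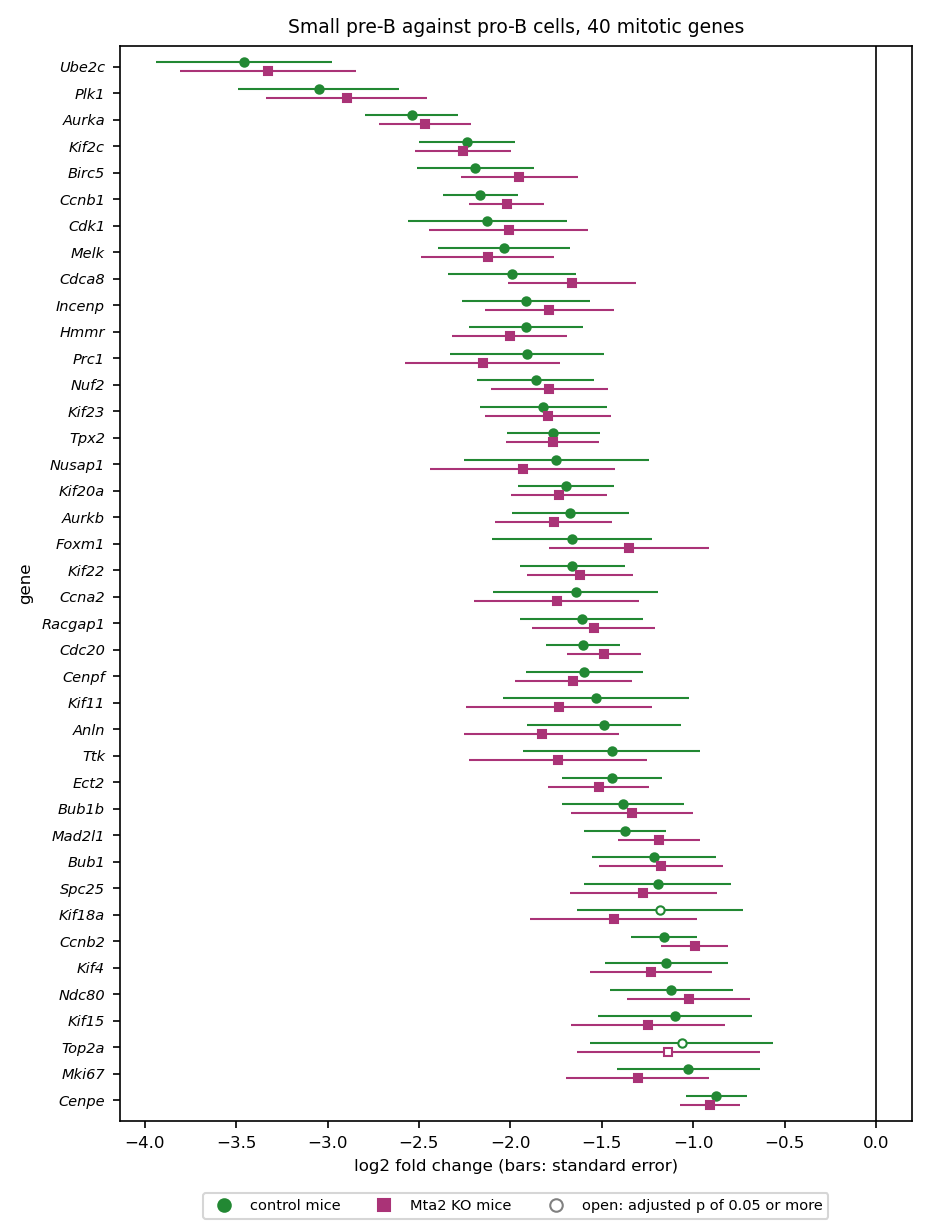
Log2 fold change of small pre-B against pro-B cells for the 40 mitotic genes in control mice (circles) and Mta2 KO mice (squares), with bars of 1 standard error; open symbols did not pass. All symbols lie left of 0, from -3.46 for Ube2c to -0.87 for Cenpe in controls, and the genotypes lie within each other's error bars.

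The stage differences were also set beside the promoter motifs, as a description without a test. The 23 genes with both motifs had a median stage difference of -1.60 in controls and -1.66 in KO, and the 11 genes with 1 of them or neither had -1.49 and -1.79. Melk, whose printed stretch holds neither motif, fell by 2.04 on the log2 scale, and Top2a, with 3 boxes and an element in its stretch, had -1.06.

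Levels per length of exon (RPKM, from the scaled CPM) allow the genes to be compared with each other. The median of the 40 genes was 56.8 RPKM in pro-B controls and 51.2 in pro-B KO, then 14.8 in small pre-B controls and 13.6 in small pre-B KO, where the median of all tested genes was 8.19 to 8.93. In pro-B cells Ube2c had the highest level per length, at 247 RPKM in controls and 231 RPKM in KO, and Kif18a the lowest at 12.2 and 10.7 RPKM. By group means the highest was Mki67 at 113 RPKM in small pre-B controls and Top2a at 86 RPKM in small pre-B KO, and the lowest was Melk at 3.64 and 3.34 RPKM. The order of Mki67 and Top2a changed between libraries, with Top2a above Mki67 in small pre-B control 2 and Mki67 above Top2a in small pre-B KO 3. The share of single genes in the programme differed between the stages, as a description without a test. Ube2c took up 8.97% to 9.54% of the summed RPKM of the 40 genes in the pro-B libraries and 1.82% to 3.57% in the small pre-B libraries. Cenpe went the other way, from 0.939% to 1.01% up to 1.44% to 2.42%.

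Beside the stage difference stood other differences between the sorted populations. In controls 29.4% of all tested genes fell and 26% rose. The 12 granulocyte and myeloid markers fell in 12 of 12 cases and the 6 plasmacytoid dendritic cell markers in 6 of 6. T cell markers fell in 7 of 7 cases, stem and progenitor markers in 3 of 5 and erythroid markers in 4 of 6 tested. Of 4 plasma cell markers 2 fell and 1 rose. The plasmacytoid dendritic cell markers summed to 3343 to 3871 CPM in pro-B libraries and 300 to 444 CPM in small pre-B libraries. The globin genes were listed at 0 in each library. The part of such cells in the level of the mitotic genes was not tested.

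Pro-B cells with and without Mta2 were compared next. No mitotic gene passed in pro-B cells, 0 of 40 with edgeR, 0 with DESeq2 and 0 with limma-voom, and 0 had an unadjusted p below 0.05. Among all 14161 tested genes edgeR called 0% lower and 0.0353% higher. DESeq2 called 46 lower and 136 higher, and limma-voom 16 and 132. The log2 fold changes were small and all on the same side, negative in 40 of 40 genes (51.2% of all genes were negative), with a median of -0.16 and a range from -0.30 for Bub1 to -0.04 for Melk. Each gene's 95% interval contained 0. In 21 genes the interval lay within a factor of 2 in either direction, and the widest reached from -1.48 (Nusap1) on one side to 1.10 (Kif11) on the other.

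Cenpe, Mad2l1 and Bub1 had the smallest p in pro-B cells. Cenpe had 226 and 197 CPM in controls, and both KO libraries had 187 CPM (log2 fold change -0.18, SE 0.18, adjusted p = 1, edgeR). Mad2l1 was at 117 and 95.1 CPM and at 92.8 and 88.1 CPM (-0.23, SE 0.25). Bub1 was at 110 and 91.6 CPM and at 87.4 and 76.1 CPM (-0.30, SE 0.38). In these 3 genes both KO libraries were below both controls, by a margin smaller than the gap between the controls. Such a separation in the lower direction held for 21 of the 40 genes and for 28.1% of all genes.

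Pro-B control 1 was the highest of the 4 pro-B libraries in 40 of 40 genes, as it was for 28.8% of all genes. The summed level of the 40 genes was 10870 CPM in control 1 and 9147 CPM in control 2, and it was 9113 CPM in KO 1 and 8470 CPM in KO 2. Control 2 and KO 1 were therefore nearly level. Without pro-B control 1 the median log2 fold change was -0.05 and 27 of the 40 genes were negative. Cdk1, with controls at 160 and 139 CPM, had 144 and 141 CPM in KO, so that the KO libraries lay between the controls. Plk1 was at 182 and 162 CPM against 159 and 146 CPM, Aurkb at 154 and 139 CPM against 134 and 126 CPM, and Foxm1 at 294 and 255 CPM against 242 and 221 CPM. In these the KO libraries were the lower ones, with adjusted p of 1 throughout (edgeR). The granulocyte and myeloid markers were higher in both KO libraries than in both controls in 12 of 12 cases (27.4% of all genes), though 0 passed. Their sums were 10130 and 10100 CPM in the controls beside 15730 and 23760 CPM in the KO libraries. Their part in the level of the mitotic genes was not tested.

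In small pre-B cells, too, no mitotic gene passed between KO and control, and the direction was mixed. The count was 0 of 40 with edgeR, DESeq2 and limma-voom, with 0 at an unadjusted p below 0.05 (edgeR). Of all 14161 tested genes edgeR called 1.14% lower and 1.89% higher, 3.02% in all. DESeq2 called 801 lower and 1068 higher, and limma-voom 124 and 313. The log2 fold change was negative in 30 genes and positive in 10 (49% of all genes were negative), with a median of -0.18. It ranged from -0.53 for Mki67 to 0.19 for Cdca8, and the smallest adjusted p was 0.377 (edgeR, Mki67). In 0 of the 40 genes were the groups free of overlap, compared with 11.7% of all genes in the lower and 13.3% in the higher direction. The 95% interval contained 0 in each gene and lay within a factor of 2 in 28.

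Markers of B cell stage and of other cell types differed in the same comparison. Over all tested genes 1.14% fell, 1.89% rose and 49% had a negative log2 fold change. The calls rest on a spread estimated from all 10 libraries. A fit of the small pre-B groups alone called 0 of 12478 genes lower and 0 higher, so these markers did not pass there. Il2ra, a small pre-B marker, fell (log2 fold change -1.36, adjusted p = 0.0259, edgeR) and was 1 of 6 such markers to pass, while Kit, a receptor of early progenitors, rose (2.54, adjusted p = 0.0317, edgeR) as 1 of 8 pro-B markers. Of 7 T cell markers 4 rose, among them Cd3e (5.49, adjusted p = 0.0207, edgeR), and the sum of the list was 14.7 to 57.2 CPM in controls and 77.5 to 139.9 CPM in KO. Of 12 granulocyte and myeloid markers 12 were positive and 1 rose, Ly6c2 (1.81, adjusted p = 0.0283, edgeR), with sums of 126 to 362 CPM in controls and 217 to 463 CPM in KO. Their part in the level of the mitotic genes was not tested.

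**Figure D4:**
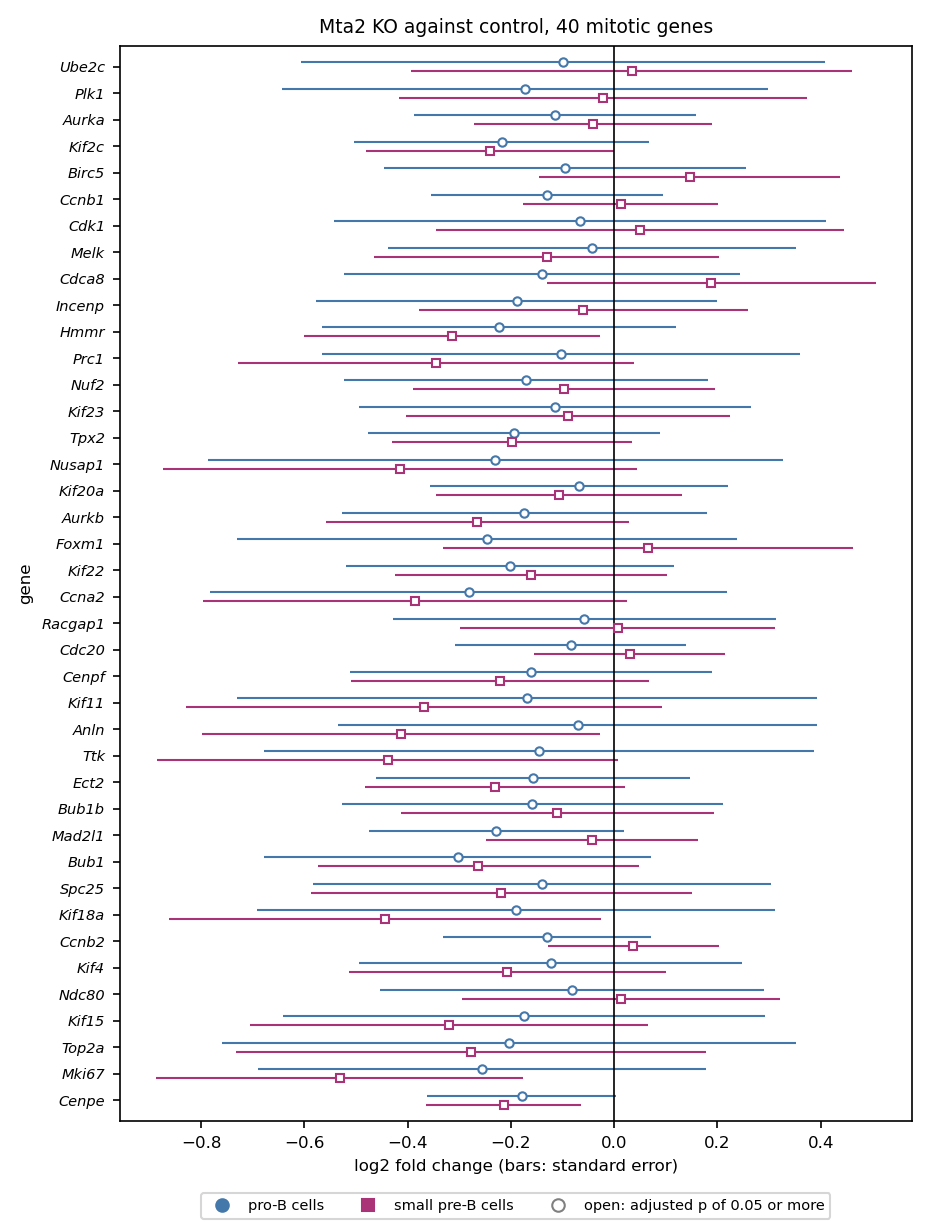
Log2 fold change of Mta2 KO against control for the 40 mitotic genes in pro-B cells (circles) and small pre-B cells (squares), with bars of 1 standard error; all symbols are open because none passed. The pro-B values lie between -0.30 and -0.04, and the small pre-B values between -0.53 for Mki67 and 0.19 for Cdca8.

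The smallest p in small pre-B cells belonged to Mki67, Cenpe and Hmmr. Mki67 was at 675, 1153 and 1583 CPM in controls versus 1009, 925 and 425 CPM in KO (log2 fold change -0.53, SE 0.36, 95% interval -1.33 to 0.27). KO 3 was below each control, while KO 1 and 2 lay between controls 1 and 2. Cenpe was at 93.1, 124 and 130 CPM in controls versus 107, 108 and 83.5 CPM in KO (-0.21, SE 0.15, adjusted p = 0.399, edgeR). Hmmr, a protein of the spindle poles, was at 19.8, 38.8 and 43.9 CPM and at 30.0, 33.2 and 19.5 CPM (-0.31, SE 0.29, adjusted p = 0.523, edgeR). In both, KO 3 was the lowest library and control 1 stood just above it.

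Among the 7 kinases and cyclins the log2 fold changes ran from -0.39 for Ccna2 (95% interval -1.31 to 0.54) to 0.05 for Cdk1, and 4 were negative. Ccnb1 had 14.1, 22.5 and 17.9 CPM in control libraries versus 18.4, 21.6 and 15.1 CPM in KO (log2 fold change 0.01, SE 0.19). Cdk1 was at 19.2, 51.4 and 31.9 CPM and at 43.3, 45.9 and 17.2 CPM (0.05, SE 0.40), and Ube2c at 9.87, 29.7 and 22.9 CPM and at 21.6, 32.0 and 10.6 CPM (0.03, SE 0.43). Each group had a library near the bottom, control 1 and KO 3. The intervals were wide for such genes, from -0.84 to 0.94 for Cdk1. For Ccnb1 the interval was -0.41 to 0.44, the effect of Mta2 KO on it being bounded more closely. Cdca8, with the most positive difference, was at 27.3, 55.4 and 28.4 CPM in controls versus 52.2, 48.4 and 26.1 CPM in KO (0.19, SE 0.32, adjusted p = 0.742, edgeR).

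The spread within the small pre-B groups was larger for the mitotic genes than for genes in general. The median SD of log2 CPM was 0.52 in controls and 0.63 in KO for the 40 genes, and 0.29 and 0.21 for all tested genes. In pro-B cells it was 0.16 and 0.06, against 0.09 and 0.09. The ratio of the highest to the lowest small pre-B library ranged from 1.41 for Ccnb2 to 4.84 for Ttk with a median of 2.50, and in pro-B cells the median ratio was 1.24. Ttk was at 10.8, 26.4 and 21.2 CPM in controls versus 19.6, 18.2 and 5.46 CPM in KO. Ccnb2 was at 68.5, 94.5 and 76.7 CPM and at 96.9, 78.0 and 71.3 CPM, and no library stood apart.

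The libraries took the same places in most of the genes. KO 3 was the lowest of the 6 small pre-B libraries in 34 of the 40 genes (20.5% of all genes), and control 1 was the lowest in the other 6, namely Ccnb1, Ccnb2, Cdc20, Ube2c, Kif18a and Melk. Control 2 was the highest in 25 (8.06% of all genes), control 3 in 10 (30.2%), KO 1 in 3 and KO 2 in 2. The summed level of the 40 genes was 2349, 4428 and 4420 CPM in controls and 3744, 3813 and 1667 CPM in KO. The mean of KO 1 and 2 was above KO 3 in each gene, by 1.23-fold for Ccnb2 up to 3.52-fold for Nusap1, with a median of 2.13-fold. KO 1 and 2 are the libraries with Xist RNA and KO 3 has Y-linked RNA like the controls. The part of this difference in the level of the mitotic genes was not tested. Without KO 3 the median log2 fold change of KO against control was 0.10, with 9 genes negative. With KO 1 and 2 left out, a comparison chosen after seeing the data that rests on 1 KO library, it was -0.98 with 40 genes negative. In both cases 0 genes passed.

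**Figure D5:**
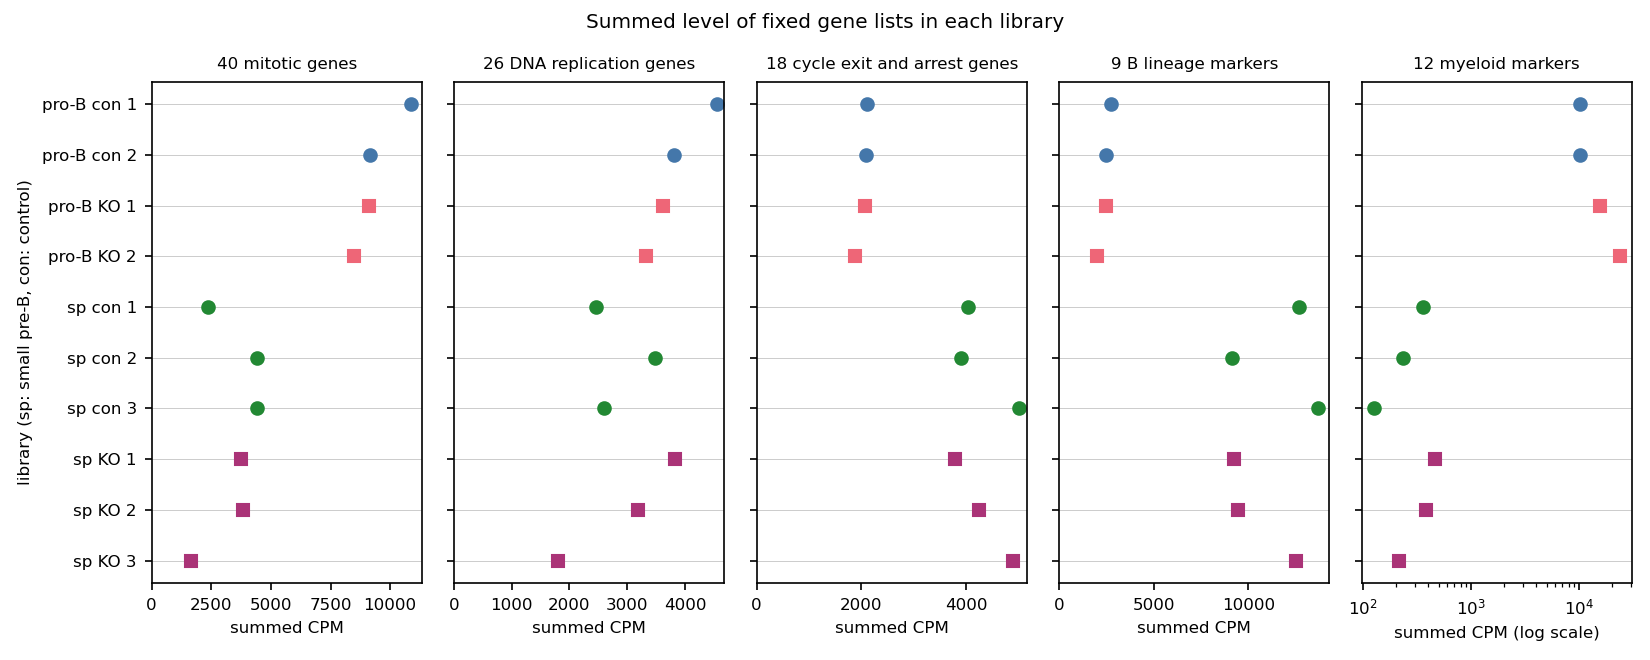
Summed CPM of 5 gene lists in each library; circles are control and squares KO libraries, and the axis for myeloid markers is logarithmic while the others start at 0. Small pre-B control 1 and KO 3 hold the lowest sums of the 40 mitotic genes, at 2349 and 1667 CPM.

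The difference between the KO effects in the stages was not significant for any of the 40 genes. The count was 0 with edgeR, with DESeq2 and with limma-voom, 0 had an unadjusted p below 0.05, and 0% of all genes were called by edgeR. Of all 14161 tested genes DESeq2 called 38 lower and 20 higher, and limma-voom 0 and 0. The median difference, small pre-B minus pro-B, was -0.01, with a range from -0.34 for Anln to 0.33 for Cdca8. The smallest p were those of Cdca8, Ccnb2 and Mad2l1. Cdca8 was at 166 and 129 CPM in pro-B controls and at 139 and 128 CPM in pro-B KO, beside the small pre-B values given above, for a difference of 0.33 (SE 0.50, 95% interval -0.80 to 1.45, adjusted p = 0.886, edgeR). Ccnb2 had 0.17 (SE 0.26) and Mad2l1 0.19 (SE 0.32). The interval lay within a factor of 2 in either direction for 11 of the 40 genes and reached beyond it for the others.

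Other genes of the cycle, from lists that do not contain the 40, were compared between the stages too. Over all tested genes 29.4% fell and 26% rose in controls, and 27.3% fell and 24% rose in KO. Of 50 other G2 and M genes 41 fell and 0 rose in controls (median log2 fold change -1.43), and 40 fell and 1 rose in KO (-1.47). The smallest p were those of the nuclear import factor Kpna2, from 167 ± 11.8 to 25.8 ± 4.82 CPM in controls (SD, n = 2 and 3), Troap, from 69.98 ± 8.17 to 11.3 ± 2.41 CPM, and Psrc1, from 37.4 ± 6.67 to 13.4 ± 1.19 CPM. Of 26 DNA replication genes 8 fell in controls and 3 in KO, a share near that of all genes in controls and below it in KO. Their median log2 fold changes were -0.55 and -0.25. The sign was negative in 26 of the 26 in controls and in 20 in KO, against 51% and 50.8% of all genes. Tk1 and Tyms, enzymes of thymidine supply, fell by 1.33 and 1.73 on the log2 scale in controls. The spread in these lists was not compared by a test with that of the 40 genes. In the KO comparisons 0 genes of these lists passed within either stage.

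Among 22 regulators of the programme 4 fell and 6 rose in controls, and 3 fell and 6 rose in KO, so the share that rose was near that of all genes. The E2F partner Tfdp2 rose from 64.97 ± 3.01 to 222 ± 19.9 CPM in controls, the retinoblastoma gene Rb1 from 94.3 ± 3.53 to 282 ± 22.2 CPM and E2f2 from 335 ± 24.4 to 833 ± 204 CPM (log2 fold changes 1.77, 1.58 and 1.31, with adjusted p of 8.31e-06, 3.05e-05 and 0.000536, edgeR). Of 18 genes on a list named for cycle exit and arrest 10 rose and 2 fell in either genotype. The list also holds the D cyclin genes Ccnd2 and Ccnd3, which act in G1, so its counts are not those of exit and arrest genes alone. Foxo1, a transcription factor of resting lymphocytes, rose from 146 ± 2.62 to 561 ± 56.1 CPM, Mxd4, a Myc antagonist, from 42.0 ± 4.46 to 106 ± 11.9 CPM and the cyclin gene Ccng2 from 87.7 ± 5.08 to 259 ± 15.9 CPM. These lists were compiled with earlier results of these data known, and Rbl2 is in both of the last lists.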

How the data were processed

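Each of the 10 deposited files held raw counts of reads per gene for 1 library. The authors' counting, per the file headers, was done by featureCounts (1.4.3-p1) on exons of an mm10 annotation, ignoring strand, although the library kit was a stranded one. Further tools and builds in the submitters' processing notes are CASAVA (1.82), STAR and mm9. The header of small pre-B control 3 carries another number (919) than its title (931). All 10 libraries were control or Mta2 KO, and all were analysed here.

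The 40 members, the other lists and the alternatives were chosen with earlier results of these data known. Genes were filtered by group (filterByExpr, minimum count 10, total 15), scaled by TMM and fitted with 1 mean for each of the 4 groups by robust edgeR 4.0.16 quasi-likelihood (R 4.3.3), with Benjamini-Hochberg adjustment over 14161 genes and a threshold of 0.05. SE are log2 fold changes divided by the root of F, and 95% intervals use the fit's degrees of freedom. Alternatives were DESeq2 1.42.0, limma-voom (limma 3.58.1), other scalings and filters, a fit of the compared groups alone, a minimum log2 fold change of 1, the number in the titles as a block, and each library left out. Values in every library are given for 12 members of fixed roles, for the 3 largest changes that passed or, where none did, the 3 smallest p, and for the 3 smallest stage differences. Genes of other lists are the 3 with the smallest p. Members named beside these, such as Melk, Ttk and Ccnb2, were chosen after their values were seen. Promoter windows came from RefSeq (GRCm38.p6).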

Additional observations from a re-analysis of the deposited data

How the results depend on the processing

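Over the alternatives tried, 26 to 40 of the 40 genes fell between the stages in controls and 27 to 40 in KO, and 0 rose. Leaving out 1 library at a time gave 26 to 40 and 27 to 39, and median log2 fold changes of -1.87 to -1.44 and -1.89 to -1.40. Without pro-B control 1, which leaves 1 pro-B control assumed to vary like the other groups, 14 genes did not pass, among them Ccna2, Bub1, Kif11, Ttk and Foxm1. In the KO comparisons 0 genes passed under each alternative. With all libraries the medians were -0.16 in pro-B cells, -0.18 in small pre-B cells and -0.01 for the difference. With 1 library left out at a time they lay between -0.27 and -0.05, between -0.35 and 0.10, and between -0.19 and 0.25. With small pre-B KO 1 and 2 left out, chosen after seeing the data, the medians were -2.48 for the stage in KO, -0.98 for small pre-B KO and -0.80 for the difference. There Cdca8 turned to -0.50 for small pre-B KO, and in the difference Cdca8 turned to -0.36, Ccnb2 to -0.03 and Mad2l1 to -0.34. Without pro-B control 2, Ccnb2 was at 0.36 in the difference. Without pro-B control 1, Melk turned to 0.08 in pro-B cells and Ccnb2 to -0.05 in the difference. The cause was not tested.

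The number in the titles is shared by a control and a KO library. For libraries that share it, the correlation over all genes of deviations from the group means was 0.01 in pro-B cells. It was 0.10, 0.15 and 0.04 in small pre-B cells, where libraries with different numbers had -0.11 to 0. Deviations within a group cancel, so these values are tied to each other, fully so with 2 pro-B libraries per group. Whether the number marks a pairing was not settled, and the main fits do not use it. With it as a replicate block 0 of the 40 genes passed, with medians of -0.16, -0.20 and -0.03. Over all genes the block left 0 calls in place of 5 in pro-B cells, and 27 lower and 126 higher in place of 161 and 267 in small pre-B cells. The stage fits could not hold the block. Each member had at least 98 counts in each library, and the effect of depth on the calls was not tested.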

Other observations

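Among 18 tubulin genes and subunits of the anaphase-promoting complex, which most cells use, 9 fell and 2 rose from pro-B to small pre-B controls, and 7 fell and 4 rose in KO. Over all tested genes 29.4% fell and 26% rose in controls, and 27.3% and 24% in KO. The tubulin gene Tuba1c fell from 45.2 ± 0.229 to 9.49 ± 2.44 CPM in controls (SD, n = 2 and 3) and Tubb4b from 275 ± 32.1 to 84.2 ± 23.8 CPM. Anapc11, the catalytic ring subunit of the complex, fell from 29.3 ± 3.33 to 17.5 ± 1.90 CPM. The log2 fold changes were -2.25, -1.71 and -0.74 (adjusted p of 3.96e-05, 0.000189 and 0.00191, edgeR quasi-likelihood). The median of the list was -0.17, against -1.65 for the 40 mitotic genes.

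The cyclin gene Ccnd2, which acts in G1, had the smallest p of the cycle exit list between KO and control in small pre-B cells, with 23.7 ± 19.0 CPM in the control and 94.6 ± 43.7 CPM in the KO libraries (SD, n = 3 each), and did not pass (log2 fold change 2.0, SE 0.57, adjusted p = 0.0846, edgeR quasi-likelihood). Of the 40 mitotic genes, 8 lie on chromosome 2, among them Ube2c, Aurka, Bub1 and Bub1b, and 1 on chromosome X, Kif4. The share of all genes on these chromosomes was not computed, so the counts do not show clustering.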
